A study of Mus musculus with 30 samples.

Results

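The p53 target genes described here are 10 genes that p53, the transcription factor activated by DNA damage and other stresses, is known to switch on: Cdkn1a, Mdm2, Ccng1, Trp53inp1, Phlda3, Sesn2, Bax, Gdf15, Eda2r and Zmat3. They were listed by name, with no threshold on their values, and were found by symbol among the 55487 genes of the deposited count tables. In the GRCm38.p6 annotation they lie on 8 autosomes and the X chromosome: Phlda3 at chr1:135766085-135769134, Zmat3 at chr3:32334792-32365665, Trp53inp1 at chr4:11156441-11174379, Sesn2 at chr4:132492804-132510456, Bax at chr7:45461695-45466903, Gdf15 at chr8:70629393-70632470, Mdm2 at chr10:117688875-117710758, Ccng1 at chr11:40748552-40755309, Cdkn1a at chr17:29090979-29100722 and Eda2r at chrX:97333837-97377234. Each symbol stood for 1 gene, and all 10 passed the filter on low counts in both cell fractions.

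The libraries came from lung organoids of wild-type C57BL/6J adult mice, male and female. Freshly isolated Epcam+ lung epithelial cells of 1 mouse were grown together with CCL206 cells, a mouse lung fibroblast line, and were exposed for 72 h to vehicle control, to an exacerbation cocktail named EC, to a cocktail named IPFc, or to 2 ng/ml TGF-β. EC held TNF-α, IL-1β, IL-6 and IL-8 according to the labels, with KC in place of IL-8 according to the study's methods, and IPFc held TGF-β, TNF-α, the chemokines CCL2 and IL-8, the alarmins IL-33, TSLP and IL-1β, and the type II cytokines IL-13 and IL-4, so that TGF-β was also part of IPFc. The cultures were then separated again into Epcam+ cells, called epithelial libraries, and Epcam- cells, called fibroblast libraries. Of the 30 bulk RNA-seq libraries, 15 were epithelial and 15 fibroblast, from 4 mice, with 4 libraries in each of the 8 groups except epithelial TGF-β (mice 2, 3 and 4) and fibroblast vehicle (mice 1, 3 and 4). The fibroblasts of every group had been treated with mitomycin C, a DNA crosslinking drug used to stop their division, before the cultures were set up. CCL206 is 1 cell line, so the replicates of the fibroblast libraries are cultures of the same line beside epithelial cells of different mice, and the cell type, the line and the mitomycin C treatment cannot be told apart in any comparison of the fractions.

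p53 is kept low in unstressed cells by Mdm2, an E3 ubiquitin ligase that is itself switched on by p53, so that the pathway restrains itself. Once p53 is stabilised it raises inhibitors of the cell cycle, such as p21 (the product of Cdkn1a), inhibitors of growth signalling, such as the sestrins, and cell death genes, such as Bax. Several of these genes also answer to other factors, among them TGF-β signalling for Cdkn1a and the integrated stress response for Sesn2 and Gdf15. DNA crosslinks of the kind made by mitomycin C are a classical trigger of the pathway.

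p53 binds pairs of half-sites of 10 bases with a central C and G, and the letters of such pairs upstream of 3 of the members are shown because p53 acts on its targets by binding such sites. Promoter windows from RefSeq (GRCm38.p6), of 250 bases before to 50 bases after the gene start, were at hand for 8 of the 10 members. They were searched for the p53 response element, with a spacer of at most 13 bases between the half-sites. The consensus reads the same on both strands. The 250 bases before the start are printed 5′ to 3′ on the strand of the gene, with the matching half-sites in capitals (at most 1 mismatch in the pair for Cdkn1a and Ccng1, at most 2 for Bax). Cdkn1a lies on the plus strand (chr17:29090729-29090978), Ccng1 on the minus strand (chr11:40755287-40755536) and Bax on the minus strand (chr7:45466899-45467148).
Cdkn1a: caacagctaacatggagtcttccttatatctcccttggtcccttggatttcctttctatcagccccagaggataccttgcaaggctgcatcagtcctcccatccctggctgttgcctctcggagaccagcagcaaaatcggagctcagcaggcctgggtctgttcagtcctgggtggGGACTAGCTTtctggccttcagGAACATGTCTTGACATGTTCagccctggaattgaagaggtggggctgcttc
Ccng1: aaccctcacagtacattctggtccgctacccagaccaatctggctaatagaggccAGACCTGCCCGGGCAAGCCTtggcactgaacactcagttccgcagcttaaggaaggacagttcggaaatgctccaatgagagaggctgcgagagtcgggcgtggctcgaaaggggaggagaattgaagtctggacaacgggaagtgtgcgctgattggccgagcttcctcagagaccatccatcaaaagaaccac
Bax: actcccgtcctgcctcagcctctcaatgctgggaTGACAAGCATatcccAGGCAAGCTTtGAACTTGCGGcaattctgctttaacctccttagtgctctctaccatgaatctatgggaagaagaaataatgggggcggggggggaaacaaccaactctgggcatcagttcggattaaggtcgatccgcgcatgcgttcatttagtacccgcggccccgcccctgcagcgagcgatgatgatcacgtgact
In the Cdkn1a window a pair with a spacer of 12 bases had 0 mismatches, and it shared its second half-site with an adjoining pair that had 1 mismatch and a spacer of 0 bases. The marked Ccng1 pair had 1 mismatch. Another Ccng1 pair that overlaps it, with a spacer of 5 bases and 2 mismatches, is not marked. The 2 overlapping Bax pairs had 2 mismatches each. Of all 32851 RefSeq windows, 0.0731% held a pair with 0 mismatches, 0.627% one with at most 1 and 4.09% one with at most 2. The windows of Mdm2, Phlda3, Sesn2, Gdf15 and Eda2r held no pair with at most 2 mismatches, which says only that these letters are not in those bases. The libraries measured RNA and not binding, so a match is a description of the sequence.

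The libraries held between 5113828 and 20317181 counted reads, and the lowest total was that of the EC fibroblast library of mouse 1. Levels are given as CPM, the count of a gene divided by its library total and scaled to a common size, after TMM scaling, which adjusts for differences in library composition. Values of single libraries are listed in the order of the mice. The markers of both cell types were found in both fractions. The 20 epithelial markers summed to 28206 to 36193 CPM in the epithelial vehicle libraries and to 6795 to 11295 CPM in the fibroblast vehicle libraries, and all 20 were detected in every group. The 20 fibroblast markers summed to 17412 to 21553 CPM in the fibroblast and 1183 to 2023 CPM in the epithelial vehicle libraries, and 19 of the 20 were detected in each group except IPFc fibroblasts, where all 20 were. Leukocyte markers summed to at most 159 CPM and endothelial markers to at most 32.8 CPM in any library. Under TGF-β the fibroblast markers, some of which are themselves TGF-β targets, reached 12982 to 15051 CPM in the epithelial libraries, and the epithelial markers fell to 185 to 647 CPM in the fibroblast libraries.

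The median ratio of these markers between a library and the other fraction of its culture estimated the share of RNA that came from the other fraction. In epithelial libraries this share averaged 5.97% ± 2.46 (SD, n = 4) in vehicle, 11.5% ± 5.35 (SD, n = 4) in EC, 11.2% ± 5.48 (SD, n = 4) in IPFc and 28.7% ± 2.78 (SD, n = 3) in TGF-β. In fibroblast libraries it averaged 22.0% ± 6.99 (SD, n = 3) in vehicle, 46.7% ± 8.03 (SD, n = 4) in EC, 19.8% ± 8.56 (SD, n = 4) in IPFc and 2.18% ± 1.23 (SD, n = 4) in TGF-β. The share thus moved with treatment in opposite directions in the fractions under TGF-β, and most members differ in level between the fractions. Values after this share was subtracted from the counts are therefore given where they change a call or a direction. The shares were taken between libraries that both hold RNA of the other cells, so they are approximate. Fibroblast markers raised by TGF-β within epithelial cells would also count towards the share of the TGF-β epithelial libraries. The subtraction there may therefore remove too much, which was not tested.

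**Figure D1:**
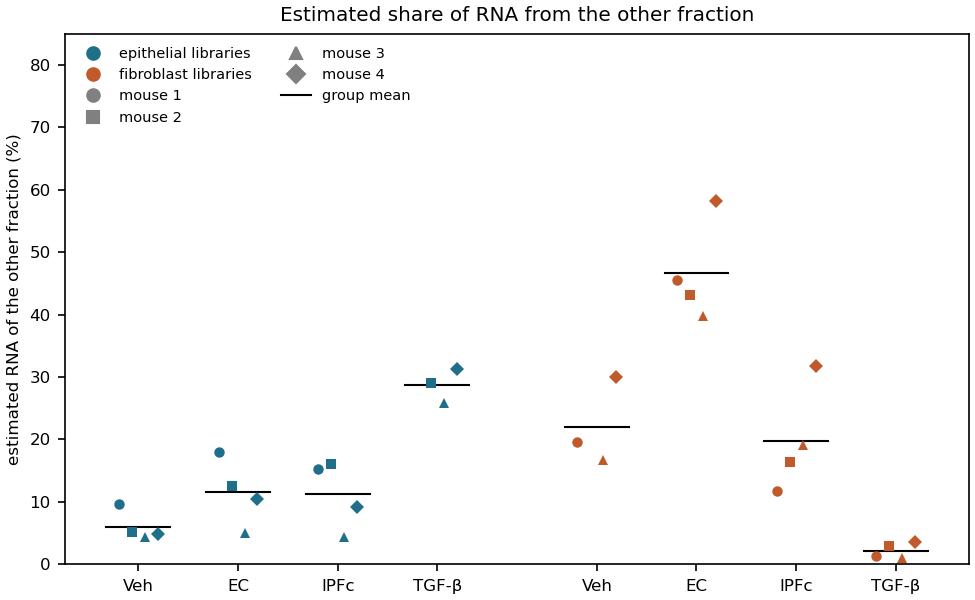
Estimated share of RNA from the other fraction (percent, y axis) in each of the 30 libraries, grouped by fraction and treatment (x axis). Symbols mark the mouse and lines the group mean. Epithelial TGF-β libraries lay between 25.8 and 31.3%, above all other epithelial libraries, and fibroblast TGF-β libraries between 0.943 and 3.52%, below all other fibroblast libraries.

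In the vehicle cultures most p53 targets were higher in the fibroblast libraries than in the epithelial libraries, and Gdf15 was the exception. Levels per kilobase used all annotated exons of a gene joined, not the transcripts present, so their order between genes is approximate. On this scale the highest level in the fibroblasts was that of Ccng1, at 158 ± 41.6 CPM per kb (SD, n = 3), followed by Phlda3 at 134 ± 28.1 CPM per kb (SD, n = 3). Bax stood at 75.0 ± 13.1 CPM per kb (SD, n = 3), Cdkn1a at 72.7 ± 17.7 CPM per kb (SD, n = 3) and Mdm2 at 61.4 ± 0.411 CPM per kb (SD, n = 3). These neighbours in the order lay within their spread of one another except that Phlda3 and Bax did not overlap. Gdf15 was the lowest member there, at 2.64 ± 1.18 CPM per kb (SD, n = 3). In the epithelial libraries Ccng1 also led, at 75.4 ± 17.9 CPM per kb (SD, n = 4), while Eda2r was lowest, at 1.93 ± 0.673 CPM per kb (SD, n = 4).

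Of the 10 members, 6 were called lower in epithelium and 1 higher in the vehicle comparison (edgeR quasi-likelihood test, two-sided, Benjamini-Hochberg adjusted p under 0.05 over 18364 genes). Of all genes tested in the same comparison 28.2% were called lower and 27.8% higher in epithelium, 56.0% in all, so a call in itself was common. Eda2r, a receptor of the TNF receptor family that binds ectodysplasin A2, differed most. Its vehicle level was 14.5, 11.4, 10.6 and 21.6 CPM in the epithelial libraries and 66.3, 119 and 108 CPM in the fibroblast libraries, without overlap. The log2 ratio of epithelium to fibroblasts was -2.74 ± 0.20 (SE, edgeR adjusted p = 1.1e-11).

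Phlda3, which binds membrane lipids and competes with the kinase Akt for them, stood at 121, 122, 110.1 and 86.0 CPM in epithelium and at 392, 262 and 384 CPM in fibroblasts. The log2 ratio was -1.64 ± 0.19 (SE, edgeR adjusted p = 2.7e-08). The fractions did not overlap for this gene, nor for the other members called. The share of all genes without such overlap was not counted, so this is no trait of the members. Trp53inp1, a nuclear and autophagosome protein that promotes p53 activity, had a log2 ratio of -1.49 ± 0.21 (SE, edgeR adjusted p = 1.1e-06). Mdm2 followed with -1.35 ± 0.12 (SE, edgeR adjusted p = 3.2e-10), Ccng1, which encodes cyclin G1, with -1.05 ± 0.22 (SE, edgeR adjusted p = 2.1e-04), and Cdkn1a, the p21 inhibitor of cyclin-dependent kinases, with -0.70 ± 0.12 (SE, edgeR adjusted p = 1.8e-05).

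Gdf15, a secreted stress hormone of the TGF-β superfamily, ran the other way. It stood at 19.5, 14.8, 15.5 and 23.0 CPM in epithelium and at 5.19, 3.78 and 8.94 CPM in fibroblasts, a log2 ratio of 1.63 ± 0.32 (SE, edgeR adjusted p = 8.3e-05). For 3 members the ratio did not pass the test. It was -0.28 ± 0.15 (SE, edgeR adjusted p = 0.123) for Sesn2, the stress-induced sestrin that restrains mTORC1, -0.22 ± 0.14 (SE, edgeR adjusted p = 0.183) for Zmat3, an RNA-binding zinc finger protein, and -0.18 ± 0.16 (SE, edgeR adjusted p = 0.355) for Bax, the pore-forming protein of the mitochondrial outer membrane. Their intervals allow differences of up to 0.60, 0.51 and 0.52 on the log2 scale. Without mouse 1, Sesn2 (-0.36, adjusted p = 0.0398) and Zmat3 (-0.39, adjusted p = 0.0188) passed the edgeR test as well.

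The fraction difference recurred in the other media. Under EC 8 members were called (background 49.1%, of which 24.0% higher and 25.1% lower), under IPFc 9 (background 58.3%, of which 29.5% higher and 28.7% lower) and under TGF-β 10 (background 48.2%, of which 26.0% higher and 22.3% lower), with Gdf15 higher and the other called members lower in epithelium. These libraries are separate from the vehicle libraries but come from the same mice and the same fibroblast line. The Eda2r log2 ratio was -2.28 under EC, -2.71 under IPFc and -1.71 under TGF-β, each with a standard error between 0.19 and 0.21. The Gdf15 ratio was 0.72 ± 0.28 (SE) under EC, 1.38 ± 0.28 under IPFc and 1.54 ± 0.39 under TGF-β. The Bax ratio moved from -0.18 in vehicle to -0.89 under TGF-β and the Sesn2 ratio from -0.28 to -1.06. Under EC the Gdf15 call was lost without mouse 1, 2 or 3 (adjusted p between 0.0674 and 0.200) and the Zmat3 call without mouse 2, 3 or 4 (adjusted p between 0.0919 and 0.205), while Sesn2 was added without the fibroblast EC library of mouse 1 (-0.47, adjusted p = 0.00246). Under IPFc the Sesn2 call was lost without mouse 3 or 4 (adjusted p = 0.153 and 0.0653), and Bax was added without mouse 1 (-0.36, adjusted p = 0.0237). Under TGF-β, without mouse 2, Gdf15 (0.61, adjusted p = 0.319), Trp53inp1 (-0.56, adjusted p = 0.101) and Ccng1 (-0.71, adjusted p = 0.0543) did not pass the edgeR test. With the other fraction's share subtracted, Zmat3 did not pass under EC (-0.53, edgeR adjusted p = 0.0624). Nor did Sesn2 under IPFc (-0.51, edgeR adjusted p = 0.0812). The order of the media changed as well. After subtraction the Eda2r ratio was -3.42 in vehicle, -3.91 under EC, -5.22 under IPFc and -4.11 under TGF-β. Its standard errors were then wider, between 1.00 and 1.17. The subtracted Gdf15 ratio was 3.05 ± 0.53 (SE) in vehicle, 1.84 ± 0.46 under EC, 2.13 ± 0.45 under IPFc and 1.84 ± 0.52 under TGF-β.

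**Figure D2:**
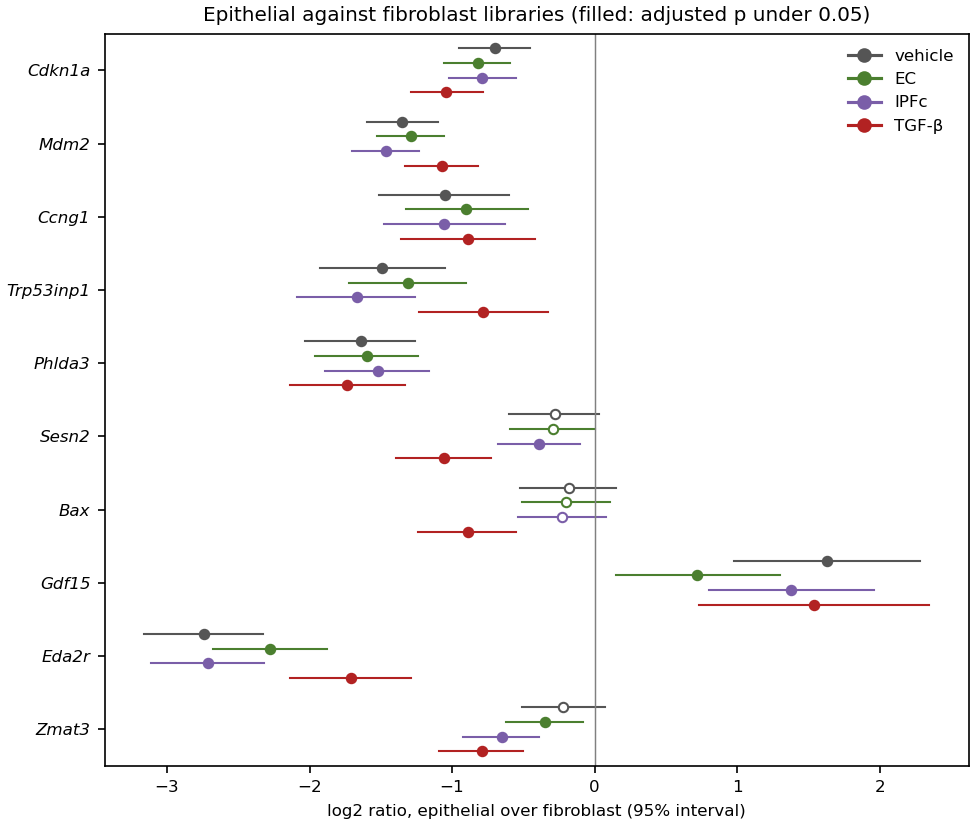
Log2 ratio of epithelial to fibroblast libraries for each of the 10 members (x axis, with 95% interval) in each medium (colour); filled points passed the test. Gdf15 lies to the right of 0 in all 4 media (0.72 to 1.63), and Eda2r lies between -2.74 and -1.71, farthest to the left in vehicle, EC and IPFc.

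p53 and the genes around it were read beside their targets. Trp53, which encodes p53, had similar RNA levels in all groups, with means between 125 ± 23.3 CPM (SD, n = 4) in EC fibroblasts and 154 ± 16.3 CPM (SD, n = 4) in TGF-β fibroblasts. In epithelium it was at 140.2 ± 7.35 CPM (SD, n = 4) in vehicle and 137 ± 9.75 CPM (SD, n = 3) in TGF-β. Of the 12 regulators of p53 listed, 5 were higher and 2 lower in vehicle epithelium than in vehicle fibroblasts (all genes tested: 27.8% higher, 28.2% lower). Among them, Trp63, the p53 relative of basal epithelial cells, was higher by 3.64 ± 0.62 (SE), and Mdm4, the partner of Mdm2 that inhibits p53, was lower by 1.46 ± 0.18 on the log2 scale. Of 14 cell cycle genes, 13 were higher in vehicle epithelium and 1, E2f1, named here after its value was seen, was lower. Plk1 was higher there by 2.12 ± 0.17 and Mki67 by 1.89 ± 0.23 on the log2 scale (edgeR, adjusted p = 5.0e-11 and 8.2e-08). After subtraction of the other fraction's share, 7 of the cell cycle genes were called higher there and 1 lower. Of 29 other p53 targets tested, 9 were higher and 13 lower in epithelium. Among these, Perp, an adhesion protein of epithelial cells, was higher by 3.05 ± 0.29, and Fas, the death receptor, was lower by 2.46 ± 0.20.

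**Figure D3:**
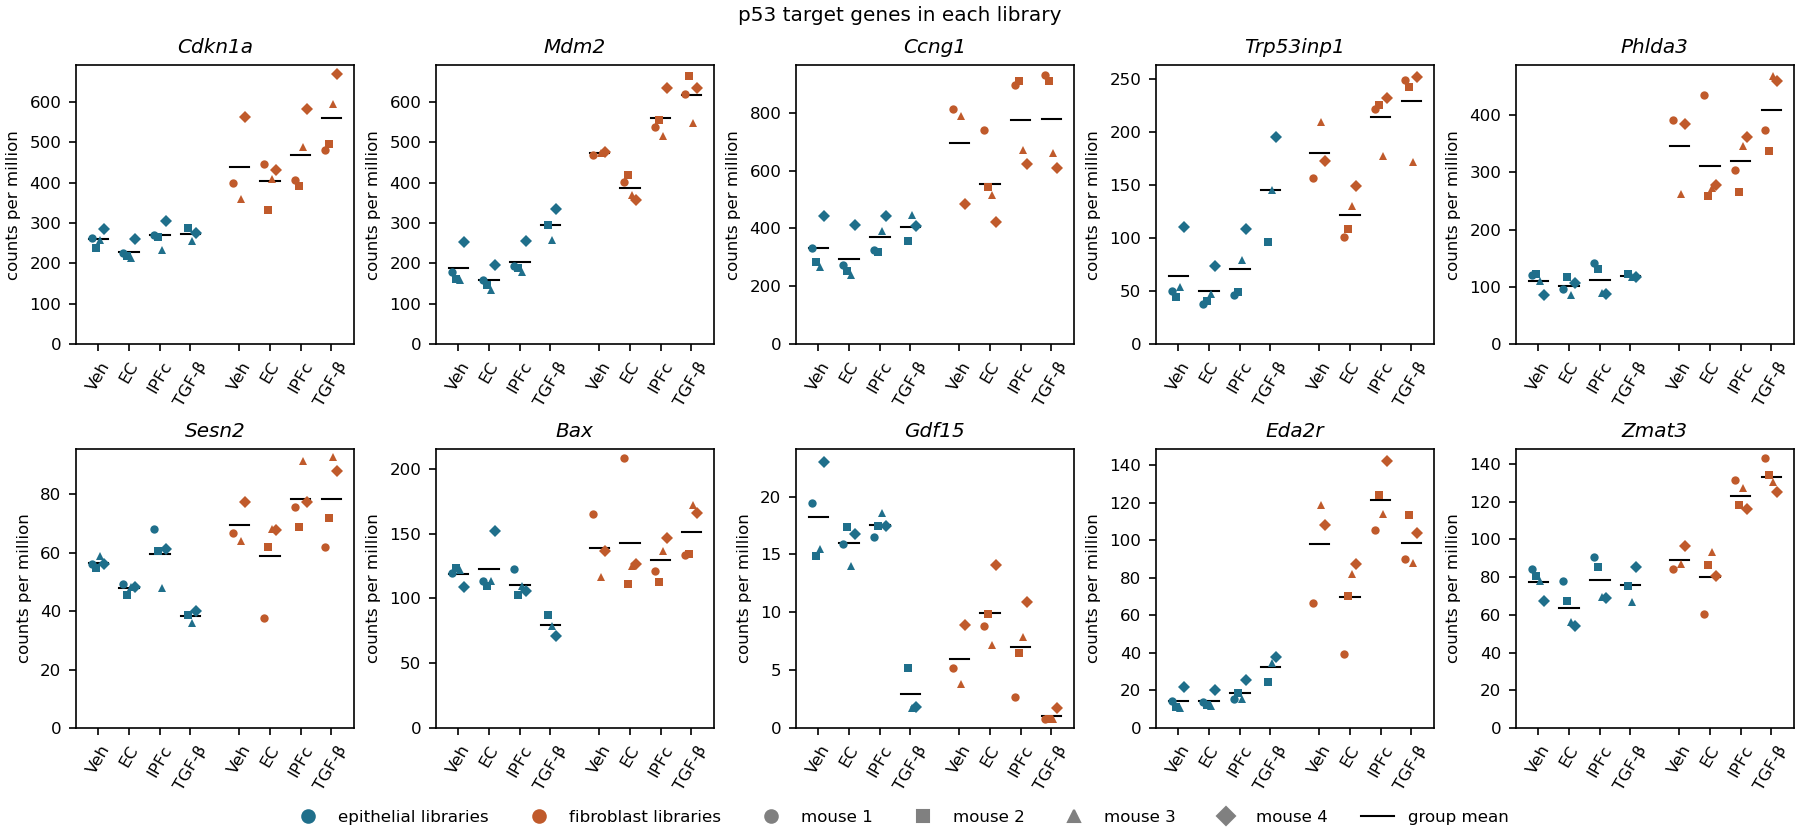
Level of each of the 10 members (CPM on a linear axis from 0) in each of the 30 libraries, grouped by fraction and medium (x axis, Veh for vehicle). Symbols mark the mouse and lines the group mean. Gdf15 falls below all other libraries of its fraction under TGF-β in both fractions, and Eda2r is at most 37.7 CPM in the epithelial libraries.

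The cytokine comparison asked how each medium changed the members within a fraction. TGF-β had the widest effect on them. In the epithelial libraries 4 members rose (21.0% of all genes tested did), 3 fell (20.1%) and 3 did not pass the test. In all, 41.1% of genes were called in this comparison, and the median log2 fold change was 0.17 over the members and 0.03 over all genes. All treatment comparisons of a fraction share the same vehicle libraries, so they are not independent of one another.

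Among the regulators of p53, Mdm2 rose in epithelium under TGF-β. It stood at 179, 162, 158 and 253 CPM in vehicle and at 295, 257 and 334 CPM in TGF-β. The groups did not overlap, with a log2 fold change of 0.71 ± 0.09 (SE, edgeR adjusted p = 1.8e-06) and a rise in 3 of 3 mice. Trp53inp1 stood at 50.4, 44.4, 53.7 and 110.2 CPM in vehicle and at 96.0, 145 and 196 CPM in TGF-β. The vehicle library of mouse 4 lay above the TGF-β library of mouse 2, so the groups overlapped although the gene rose in 3 of 3 mice. Its log2 fold change was 1.12 ± 0.11 (SE, edgeR adjusted p = 9.9e-08).

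Eda2r rose about as much. It stood at 24.7, 34.7 and 37.7 CPM under TGF-β, above every vehicle library. The log2 fold change was 1.21 ± 0.15 (SE, edgeR adjusted p = 2.0e-06). Ccng1 had a log2 fold change of 0.33 ± 0.12 (SE, edgeR adjusted p = 0.0365), with a rise in 2 of 3 mice and overlapping groups. The Ccng1 call was lost without mouse 2 (0.27, adjusted p = 0.240) and without mouse 3 (0.13, adjusted p = 0.463).

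The 3 members that fell in epithelium under TGF-β were Gdf15, Bax and Sesn2. Gdf15 was at 5.22, 1.76 and 1.82 CPM under TGF-β, below every vehicle library. Its log2 fold change of -2.49 ± 0.26 (SE, edgeR adjusted p = 1.5e-07) was the largest of any member. Bax was at 119.7, 124, 122 and 109 CPM in vehicle and at 87.6, 78.9 and 71.0 CPM under TGF-β. The groups were apart and the log2 fold change was -0.53 ± 0.12 (SE, edgeR adjusted p = 0.00122). Sesn2 was at 56.3, 54.8, 58.7 and 56.2 CPM in vehicle and at 38.7, 36.1 and 40.0 CPM under TGF-β. Again no libraries overlapped, with a log2 fold change of -0.50 ± 0.11 (SE, edgeR adjusted p = 9.7e-04). Each of the 3 genes was lower in 3 of 3 mice. The remaining members had log2 fold changes of 0.11 ± 0.09 (SE, edgeR adjusted p = 0.354) for Cdkn1a, 0.22 ± 0.13 (SE, edgeR adjusted p = 0.169) for Phlda3 and 0.08 ± 0.11 (SE, edgeR adjusted p = 0.611) for Zmat3.

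In the fibroblast libraries TGF-β raised 3 members (6.39% of all genes tested rose), lowered 1 (12.8% fell) and left 6 short of the threshold, with 19.2% of all genes called. The median log2 fold change was 0.34 over the members and -0.02 over all genes. Gdf15 fell here too. It stood at 5.19, 3.78 and 8.94 CPM in vehicle and at 0.781, 0.802, 0.807 and 1.75 CPM under TGF-β. The groups did not overlap, and the log2 fold change was -2.44 ± 0.32 (SE, edgeR adjusted p = 2.1e-05). Zmat3 was at 84.5, 86.9 and 96.4 CPM in vehicle and at 143, 134, 130.5 and 125 CPM under TGF-β. Those groups were apart as well, with a log2 fold change of 0.64 ± 0.14 (SE, edgeR adjusted p = 0.00307).

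Cdkn1a was at 398, 359 and 561 CPM in vehicle fibroblasts and at 479, 496, 594 and 667 CPM under TGF-β. The groups overlapped through the vehicle library of mouse 4, but the gene was higher in 3 of 3 mice. Its log2 fold change was 0.50 ± 0.14 (SE, edgeR adjusted p = 0.0142), and without mouse 3 it did not pass the test (0.39, adjusted p = 0.189). Cdkn1a also did not pass without the mouse block (0.42, edgeR adjusted p = 0.138). The same held with a suffix found in some sample titles as covariate (0.39, edgeR adjusted p = 0.104). Mdm2 had a log2 fold change of 0.42 ± 0.11 (SE, edgeR adjusted p = 0.0148). That call was lost without mouse 2 (adjusted p = 0.0571) or mouse 4 (adjusted p = 0.123). Without mouse 1, on the other hand, 7 members were called, Phlda3 (0.54), Sesn2 (0.38) and Bax (0.46) being added as higher (edgeR, adjusted p = 0.00394, 0.0302 and 0.00357).

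**Figure D4:**
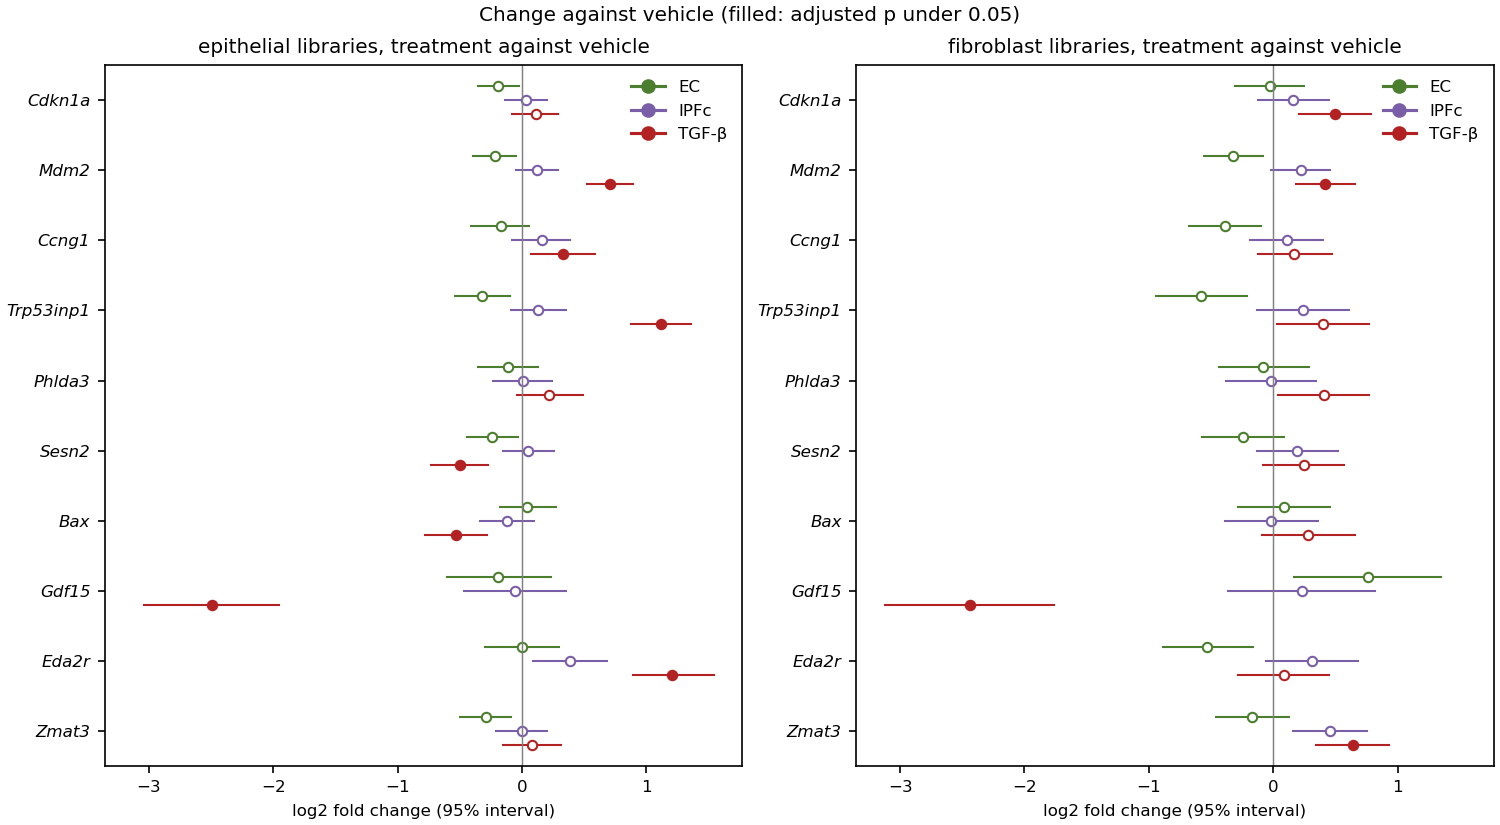
Log2 fold change against vehicle (x axis, with 95% interval) of each member in the epithelial (left) and fibroblast (right) libraries for EC, IPFc and TGF-β; filled points passed the test. Filled points occur only for TGF-β, 7 in epithelium and 4 in fibroblasts, and Gdf15 lies near -2.5 in both.

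The response to TGF-β differed between the fractions for 5 members in an interaction test (27.5% of all genes differed, 20.2% with the higher and 7.36% with the lower change in epithelium). The change was higher in epithelium for Eda2r, by 1.15 ± 0.24 (SE, edgeR adjusted p = 5.4e-04), and for Trp53inp1, by 0.74 ± 0.21 (SE, edgeR adjusted p = 0.00994). It was lower in epithelium for Bax, with -0.79 ± 0.23 (SE, edgeR adjusted p = 0.0106), for Sesn2, with -0.72 ± 0.19 (SE, edgeR adjusted p = 0.00551), and for Zmat3, with -0.53 ± 0.18 (SE, edgeR adjusted p = 0.0254). Without mouse 3 none of the 5 passed (adjusted p between 0.0655 and 0.351), and 2 epithelial TGF-β libraries then remained. Without mouse 4 the Bax difference (-0.71, adjusted p = 0.0690) did not pass and that of Mdm2 (0.46, adjusted p = 0.0459) did, and without mouse 2 the Zmat3 difference did not (-0.46, adjusted p = 0.166). After subtraction of the share the Eda2r difference turned to -1.04 ± 1.38 (SE, edgeR adjusted p = 0.719), and neither Trp53inp1, with 0.45 ± 0.47 (SE, edgeR adjusted p = 0.621), nor Zmat3, with -0.94 ± 0.34 (SE, edgeR adjusted p = 0.0763), passed. Bax and Sesn2 kept their calls, and Cdkn1a and Phlda3 were added as lower in epithelium. For Gdf15 the difference of the responses was -0.06 ± 0.53 (SE, edgeR adjusted p = 0.961), an interval that allows a difference of 1.14 on the log2 scale.

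The share of the other fraction's RNA bears on these values directly. In the epithelial TGF-β libraries the RNA expected from fibroblasts would account for 85.3% of the Eda2r level, 94.6% of the Phlda3 level, 56.5% of the Mdm2 level and 41.7% of the Trp53inp1 level, but 10.4% of the Gdf15 level. With the shares subtracted, the falls in epithelium remained and the rises did not. Gdf15 had -2.34 ± 0.34 (SE, edgeR adjusted p = 2.2e-04), Sesn2 -1.28 ± 0.14 (SE, edgeR adjusted p = 2.6e-05) and Bax -1.18 ± 0.22 (SE, edgeR adjusted p = 0.00145). Mdm2 had 0.09 ± 0.10 (SE, edgeR adjusted p = 0.576), Trp53inp1 0.71 ± 0.34 (SE, edgeR adjusted p = 0.141), Ccng1 -0.21 ± 0.22 (SE, edgeR adjusted p = 0.533) and Eda2r -1.0 ± 1.15 (SE, edgeR adjusted p = 0.577). Cdkn1a and Phlda3 were then called lower, with -0.64 ± 0.17 (SE, edgeR adjusted p = 0.0124) and -2.86 ± 0.72 (SE, edgeR adjusted p = 0.00939). In 1 of the 3 epithelial TGF-β libraries the expected amount reached the measured Phlda3 level, and likewise in 1 for Eda2r, so their subtracted values rest on small remainders.

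In the fibroblast libraries 0 of 10 members were called for TGF-β after subtraction. Gdf15 then had -1.28 ± 0.47 (SE, edgeR adjusted p = 0.208), and Zmat3 had 0.55 ± 0.28 (SE, edgeR adjusted p = 0.424). Both standard errors were larger than before subtraction, and the count over all genes fell as well, as given in the last section. Epithelial RNA would account for 69.0% of the Gdf15 level in the vehicle fibroblast libraries, 71.5% in EC and 7.03% in TGF-β. How far the fall of Gdf15 in fibroblast libraries is one of the fibroblasts themselves was not tested. Changes in the number of cells of a type and in RNA per cell cannot be told apart in bulk libraries.

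**Figure D5:**
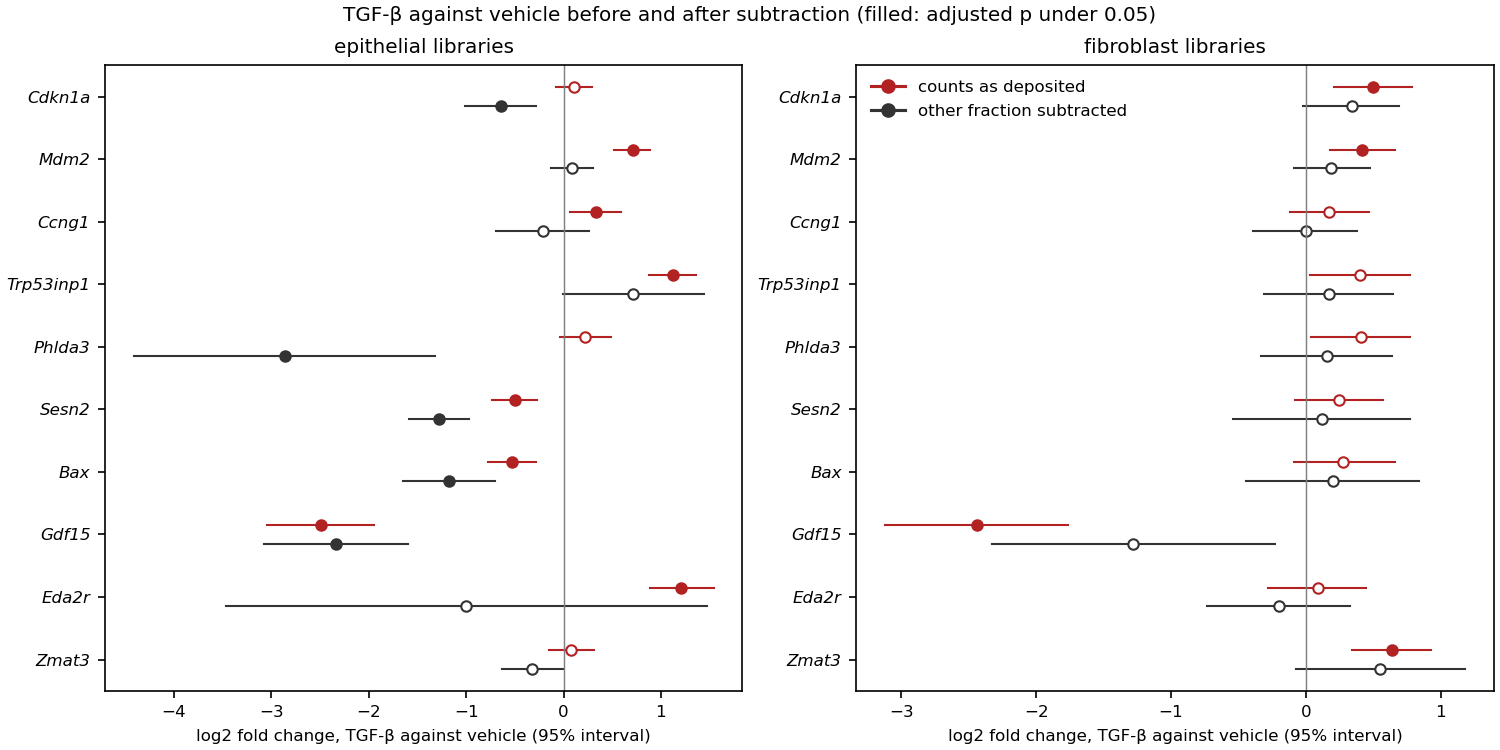
Log2 fold change of TGF-β against vehicle (x axis, with 95% interval) in the epithelial (left) and fibroblast (right) libraries, from the counts as deposited (red) and after subtraction of the other fraction's share (dark); filled points passed the test. In epithelium Gdf15, Bax and Sesn2 stay below 0 and filled, while Mdm2, Ccng1, Trp53inp1 and Eda2r lose their filled points.

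Under EC no member was called by edgeR in either fraction, and DESeq2 called 1 in each. In epithelium 4.41% of all genes were called, and 5 members had an unadjusted p under 0.05, all of them lower. Their log2 fold changes were -0.32 ± 0.11 (SE, edgeR adjusted p = 0.105) for Trp53inp1, -0.29 ± 0.10 (SE, edgeR adjusted p = 0.114) for Zmat3, -0.22 ± 0.08 (SE, edgeR adjusted p = 0.161) for Mdm2, -0.24 ± 0.10 (SE, edgeR adjusted p = 0.243) for Sesn2 and -0.19 ± 0.08 (SE, edgeR adjusted p = 0.270) for Cdkn1a, each lower in 4 of 4 mice. DESeq2 called Mdm2 lower, with an adjusted p of 0.0497, and so did edgeR after subtraction, with -0.40 ± 0.09 (SE, edgeR adjusted p = 0.0375). Mdm2 stood at 160.3, 146, 136 and 197 CPM under EC, within the range of the vehicle libraries apart from mice 2 and 3. Sesn2 stood at 49.2, 45.7, 48.4 and 48.3 CPM under EC, below every vehicle library.

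In fibroblasts 7.11% of all genes were called under EC. The log2 fold changes of the 5 members with an unadjusted p under 0.05 were -0.58 ± 0.17 (SE, edgeR adjusted p = 0.0532) for Trp53inp1, -0.53 ± 0.17 (SE, edgeR adjusted p = 0.0788) for Eda2r, -0.32 ± 0.11 (SE, edgeR adjusted p = 0.101) for Mdm2, -0.39 ± 0.14 (SE, edgeR adjusted p = 0.103) for Ccng1 and, in the other direction, 0.76 ± 0.28 (SE, edgeR adjusted p = 0.115) for Gdf15. Trp53inp1 was at 101, 108, 129.9 and 149 CPM under EC against 157, 209.6 and 173 CPM in vehicle. These groups did not overlap, and DESeq2 called the gene lower (-0.54, adjusted p = 0.0306). Without the EC library of mouse 1, which had the fewest reads, 3 members were called lower by edgeR: Trp53inp1 (-0.48, adjusted p = 0.0442), Mdm2 (-0.35, adjusted p = 0.0375) and Ccng1 (-0.46, adjusted p = 0.0165). Without all libraries of mouse 1, 5 members were called, 4 lower and Gdf15 higher. After subtraction of the epithelial share, which was highest in these libraries, 0 of 10 were called by edgeR. The count over all genes fell with it, as given in the last section. The difference of the EC response between the fractions passed the edgeR test for 0 of 10 members (background 4.59% of genes, 2 with an unadjusted p under 0.05, and 0 with DESeq2).

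Under IPFc no member was called by edgeR in epithelium (background 4.10%, 1 member with an unadjusted p under 0.05 and 0 called by DESeq2) or in fibroblasts (background 0.449%, 1 member and 0 called by DESeq2). The member with an unadjusted p under 0.05 was Eda2r in epithelium, with 0.39 ± 0.14 (SE, edgeR adjusted p = 0.179), and Zmat3 in fibroblasts, with 0.46 ± 0.14 (SE, edgeR adjusted p = 0.316). Zmat3 stood at 131, 118, 127 and 116 CPM in IPFc fibroblasts, above every vehicle library, and its rise was in 3 of 3 mice. The IPFc responses of the fractions differed for 0 of 10 members (background 0.229%, 1 with an unadjusted p under 0.05, and 0 with DESeq2).

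EC and IPFc, which share TNF-α, IL-1β and IL-8, were also compared directly. In epithelium 2 members were lower under EC than under IPFc (background 2.40% lower, 4.17% in all), Trp53inp1 by -0.45 ± 0.11 (SE, edgeR adjusted p = 0.0141) and Mdm2 by -0.34 ± 0.08 (SE, edgeR adjusted p = 0.0155). Without mouse 1, 2 or 3 the Mdm2 call was lost (adjusted p between 0.0881 and 0.104), and without mouse 3 that of Trp53inp1 (adjusted p = 0.0961). After subtraction neither was called, with -0.28 ± 0.09 (SE, edgeR adjusted p = 0.209) for Mdm2 and 0.08 ± 0.31 (SE, edgeR adjusted p = 0.986) for Trp53inp1. In fibroblasts 5 were lower under EC (background 4.16% lower, 10.4% in all). Their log2 ratios were -0.83 for Eda2r, -0.82 for Trp53inp1, -0.63 for Zmat3, -0.54 for Mdm2 and -0.49 for Ccng1, with edgeR adjusted p between 0.00294 and 0.0194, and each of the 5 was lower in 4 of 4 mice. Without mouse 4 only 3 of the 5 were called. The epithelial share differed between these groups (46.7% ± 8.03 (SD, n = 4) against 19.8% ± 8.56 (SD, n = 4)), and after its subtraction 0 of 10 members were called. The log2 ratios of the 5 then lay between -0.59 (Zmat3) and -0.23 (Mdm2).

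Against TGF-β, EC left 9 members different in epithelium (background 43.1%) and 9 in fibroblasts (background 35.4%). After subtraction 6 were called in epithelium, with Phlda3 turned to 2.41 ± 0.70 (SE, edgeR adjusted p = 0.0192), and 1 in fibroblasts, which was Gdf15 with 2.28 ± 0.45 (SE, edgeR adjusted p = 0.0118). IPFc left 6 different in epithelium (background 37.2%) and 1 in fibroblasts (background 17.4%), which was Gdf15. Without mouse 1 there were 4 in fibroblasts. After subtraction 6 were called in epithelium, among them Cdkn1a and Phlda3 in place of Mdm2 and Eda2r, and Gdf15 was called in fibroblasts, with 2.15 ± 0.44 (SE, edgeR adjusted p = 0.0243). Gdf15 stood at 16.5, 17.5, 18.6 and 17.4 CPM in IPFc epithelium and at 2.67, 6.52, 7.88 and 10.9 CPM in IPFc fibroblasts. All these libraries lay above the TGF-β libraries of the same fraction, although TGF-β was one of the IPFc factors.

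Other genes of the pathway were read from a list of 30 further p53 targets, of which 29 could be tested. Under TGF-β, 10 rose and 8 fell in epithelium, and 6 rose and 5 fell in fibroblasts. Of all genes tested, 21.0% rose and 20.1% fell in epithelium, and 6.39% rose and 12.8% fell in fibroblasts. The median log2 fold change of the 29 was -0.09 in epithelium and 0.12 in fibroblasts. Gadd45a, a stress sensor of DNA repair and growth arrest that TGF-β also raises, rose in both, by 2.48 ± 0.12 (SE, edgeR adjusted p = 3.1e-12) in epithelium and by 1.65 ± 0.17 (SE, edgeR adjusted p = 1.0e-06) in fibroblasts. Pmaip1, which encodes the death inducer Noxa, rose in epithelium by 2.02 ± 0.15 (SE, edgeR adjusted p = 1.3e-09), and Ptprv rose by 3.10 ± 0.49 (SE, edgeR adjusted p = 2.8e-05) from at most 1.03 CPM in vehicle epithelium, while its mean in vehicle fibroblasts was 8.30 ± 1.55 CPM (SD, n = 3). In fibroblasts Perp had a log2 fold change of -4.36 ± 0.43 (SE, edgeR adjusted p = 8.2e-07) and Sfn, an epithelial 14-3-3 protein that halts the cell cycle, -3.38 ± 0.27 (SE, edgeR adjusted p = 6.2e-08). Both were higher in vehicle epithelium than in vehicle fibroblasts, and the epithelial share fell in the same libraries. After subtraction 2 of the list rose and 2 fell in fibroblasts.

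Under EC, 1 of the 29 rose and 4 fell in epithelium, where 4.41% of all genes were called. Fas rose by 0.65 ± 0.18 (SE, edgeR adjusted p = 0.0395), and Btg2, an antiproliferative gene, had -0.44 ± 0.09 (SE, edgeR adjusted p = 0.00360). In fibroblasts 2 rose and 3 fell under EC, where 7.11% of all genes were called. Among them were Tigar, a regulator of glycolysis, with 0.65 ± 0.15 (SE, edgeR adjusted p = 0.0121), and Pmaip1 with -0.64 ± 0.15 (SE, edgeR adjusted p = 0.0144). Of the list 2 genes were called in epithelium without mouse 2 or 3, both lower, so that the Fas rise was lost, and 3 without mouse 1. In fibroblasts 2 were called without mouse 2, and 0 without mouse 3 or mouse 4. After subtraction 1 gene of the list was lower in epithelium and 0 were called in fibroblasts. Under IPFc none of the 29 was called by edgeR in either fraction, with 5 in epithelium and 3 in fibroblasts at an unadjusted p under 0.05, and DESeq2 called 1, in fibroblasts.

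Among the regulators of p53, under TGF-β 3 of 12 rose and 1 fell in epithelium (1 and 1 after subtraction). Of all genes tested, 21.0% rose and 20.1% fell there. Cdkn2a, which encodes Arf, the inhibitor of Mdm2, and p16, rose by 2.06 ± 0.42 (SE, edgeR adjusted p = 5.0e-04) to a mean of 4.88 ± 1.94 CPM (SD, n = 3), and Mdm4 rose by 0.72 ± 0.13 (SE, edgeR adjusted p = 2.0e-04). Trp63 had -2.04 ± 0.34 (SE, edgeR adjusted p = 5.9e-05). In fibroblasts 1 of 11 tested rose and 2 fell (all genes tested: 6.39% higher, 12.8% lower). Trp63 had -4.39 ± 1.10 (SE, edgeR adjusted p = 0.00833) and Trp73, the other p53 relative, -2.40 ± 0.67 (SE, edgeR adjusted p = 0.0173), while Trp53 rose by 0.35 ± 0.11 (SE, edgeR adjusted p = 0.0357), with overlapping groups. None of the 3 was called without mouse 3, without mouse 4 or after subtraction, and the Trp53 call was also lost without the mouse block. Under EC and IPFc 0 regulators were called by edgeR in either fraction, with 2 in epithelium and 1 in fibroblasts at an unadjusted p under 0.05 for each medium, and DESeq2 called 1, in IPFc epithelium.

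The partners of single members were read the same way. Of the 6 other inhibitors of cyclin-dependent kinases, 2 rose and 3 fell in epithelium under TGF-β (all genes tested: 21.0% higher, 20.1% lower). Cdkn2b, the p15 inhibitor and a known TGF-β target, rose by 1.40 ± 0.14 (SE, edgeR adjusted p = 7.2e-08). Cdkn2c had -1.06 ± 0.12 (SE, edgeR adjusted p = 5.9e-07). In fibroblasts 3 of 5 tested fell under TGF-β (12.8% of all genes tested fell), the lowest being Cdkn2b with -3.61 ± 0.58 (SE, edgeR adjusted p = 1.9e-04). After subtraction 3 of these inhibitors were called in epithelium, 2 higher and 1 lower, and 0 in fibroblasts. Of the 14 cell cycle genes, 10 fell and 0 rose in epithelium under TGF-β, for example Mcm5 with -0.95 ± 0.09 (SE, edgeR adjusted p = 2.3e-08) and Plk1 with -0.88 ± 0.09 (SE, edgeR adjusted p = 1.5e-07). In EC fibroblasts 4 of the 14 rose, while 7.11% of all genes were called. After subtraction of the epithelial share or without mouse 3, 0 of the 14 rose. The count was 1 without mouse 4, 10 without mouse 1 and 8 without the EC library of mouse 1.

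Of the 10 relatives of Bax in the Bcl-2 family, 4 rose and 2 fell in epithelium under TGF-β, where 21.0% of all genes tested rose and 20.1% fell. Bmf, a death-promoting member, rose by 2.21 ± 0.20 (SE, edgeR adjusted p = 1.5e-08), and the survival factors went both ways, with 1.68 ± 0.12 (SE, edgeR adjusted p = 1.1e-09) for Bcl2 and -0.87 ± 0.09 (SE, edgeR adjusted p = 1.8e-07) for Bcl2l1, which encodes Bcl-xL. Of 14 tested genes of the integrated stress response, which also acts on Sesn2 and Gdf15, 6 rose and 4 fell there. Chac1 and Ddit3, which encodes CHOP, rose by 1.39 ± 0.25 (SE, edgeR adjusted p = 1.3e-04) and 1.14 ± 0.19 (SE, edgeR adjusted p = 4.3e-05), and Psat1, of serine synthesis, had -1.16 ± 0.09 (SE, edgeR adjusted p = 3.1e-09). Eda, whose product includes the ligand of Eda2r, was lower in vehicle epithelium than in fibroblasts by 1.78 ± 0.32 (SE) on the log2 scale and was not called under any treatment in either fraction. As a check on the treatment, all 7 TGF-β target genes tested rose in TGF-β epithelium, Pmepa1 by 2.81 ± 0.13 (SE, edgeR adjusted p = 2.0e-12). In TGF-β fibroblasts 4 of the list rose (6.39% of all genes tested rose) and 1 fell (12.8% fell). The latter was Ltbp2, with -0.76 ± 0.16 (SE, edgeR adjusted p = 0.00239). After subtraction 1 rose and 1 fell there. In IPFc epithelium 2 of the 7 rose (4.10% of all genes tested were called), and Pmepa1 rose by 1.45 ± 0.12 (SE, edgeR adjusted p = 1.1e-07). After subtraction 1 of the 7 was called in IPFc epithelium.

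Across all 8 groups the members varied by different amounts. The range of group means was 4.01 on the log2 scale for Gdf15, 3.10 for Eda2r, 2.22 for Trp53inp1 and 2.01 for Phlda3, and between 0.93 for Bax and 1.96 for Mdm2 for the others. By the root mean square difference of the 8 centred group means among 13663 genes, the genes most like Gdf15 were Tspan15 (0.25), Kng2 (0.27) and Tmc3 (0.33). Those most like Eda2r were Nptxr (0.08), Notch3 (0.10) and Neo1 (0.11), those most like Trp53inp1 were Pwwp3b (0.07), Tulp4 (0.08) and Amotl1 (0.10), and those most like Phlda3 were Cacnb1 (0.11), Gpr137b (0.12) and Trp53i13 (0.12). Gdf15 thus had no gene as close to it as the other members had.

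In the order of the 8 group means, the lowest fibroblast group (EC) and the highest epithelial group (TGF-β) did not overlap for Cdkn1a, Mdm2, Phlda3 and Eda2r, with edgeR adjusted p between 9.2e-06 and 0.0117 for the step. The step was picked from the order of these means, so it was not a comparison set in advance. How many of all genes do the same was not counted. These groups also held the largest estimated share of the other fraction's RNA, 46.7% in EC fibroblasts and 28.7% in TGF-β epithelium. The mice differed as well. In epithelium mouse 4 was the highest mouse in 4 of 4 media for Mdm2, Trp53inp1 and Eda2r, and in fibroblasts it was the highest in 4 of 4 media for Gdf15. Because the mouse was a term in every test, such constant differences do not enter the fold changes between media within a fraction. In the comparison of the fractions the mouse term was common to both. A mouse difference confined to either fraction can therefore enter the ratios of epithelium to fibroblasts.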

How the data were processed

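RNA of the re-sorted cells was made into libraries with the NEBNext Ultra II Directional kit. The submitters' processing notes name Trimmomatic 0.30 and DESeq2 1.34.0. The aligner, the counter and the strand setting are not given in the sources used here, so reads of overlapping or antisense genes may not be separated. The methods name GRCm38.p6 and the labels GRCm39. The values used are the raw read counts per gene that the authors deposited, without normalization. Groups were taken from the labels, and all members and gene lists were chosen with earlier results of these data known.

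Genes with a mean count of at least 1 were kept, scaled by TMM and tested with edgeR 4.0.16 (limma 3.58.1, R 4.3.3; quasi-likelihood test, two-sided, Benjamini-Hochberg adjustment over all genes, threshold 0.05). Each fraction was fitted on its 15 libraries, and the fractions were compared in a joint fit of all 30, with the mouse as a block. Replicate numbers mark the mouse that gave the epithelial cells. The mean correlation of deviations between libraries of the same mouse was 0.26 in epithelium (0.017 to 0.56) and 0.28 in fibroblasts (-0.19 to 0.62), against -0.085 and -0.092 between mice. No pair of replicates was a repeated library (chi-square per degree of freedom 5.48 to 76.9). Levels per kb used the union of exons in GENCODE vM39. To estimate RNA from the other fraction, marker CPM of a library was divided by that of its partner library from the same mouse and treatment, and the median was taken over markers of at least 50 CPM in the partner. Where the partner library is not analysed here, the mean of the other fraction under that treatment stood in for it. The share times the partner library was then subtracted from the counts. Genes of the other lists were named where they were among the 4 largest called changes of a list in a comparison, and every p53 regulator could be named. The code was tested on simulated data. The alternatives were size factors of DESeq2 1.42.0 and its test, library size only, no filter, a minimum mean count of 10, robust dispersion, no block, the title suffix as covariate, subtraction of the share (markers of at least 50 or 200 CPM), only the groups compared, and each mouse left out. Leaving out the fibroblast EC library of mouse 1 and the alternatives for the other lists were chosen after seeing the data. The libraries of fibroblast vehicle mouse 2 and epithelial TGF-β mouse 1 are not analysed here. Totals of 5113828 to 20317181 counts limit precision most for Gdf15 under TGF-β.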

Additional observations from a re-analysis of the deposited data

Results flagged for a closer look

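In 6 of the 60 groups of 4 libraries, 1 library stood apart from the others by the Dixon criterion, and chance alone gives about 1 in 20 such groups. Trp53inp1 reached 110.2 CPM in the epithelial vehicle library of mouse 4, where the nearest library had 53.7 CPM, and stood at 171 CPM in the fibroblast TGF-β library of mouse 3, where the nearest had 242 CPM. In the fibroblast EC library of mouse 1, which had the fewest counts, Phlda3 was at 435 CPM (nearest 278) and Bax at 208 CPM (nearest 127). Bax was at 152 CPM in the epithelial EC library of mouse 4 (nearest 114). Gdf15 was at 1.75 CPM in the fibroblast TGF-β library of mouse 4 (nearest 0.807).

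The response to TGF-β differed between epithelium and fibroblasts for 5 members in the interaction test of edgeR, as it did for 27.5% of all genes tested. The difference on the log2 scale, epithelium minus fibroblasts, was 1.15 for Eda2r, 0.74 for Trp53inp1, -0.53 for Zmat3, -0.72 for Sesn2 and -0.79 for Bax. With the estimated admixture removed from the counts, the Eda2r difference was -1.04. Trp53inp1 and Zmat3 then did not pass either (edgeR adjusted p = 0.621 and 0.0763). Without mouse 3 none of the 5 passed (edgeR adjusted p between 0.0655 and 0.351).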

How the results depend on the processing

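Of 2320 pairs of a member's value and an alternative, 2162 kept their side of the threshold and direction, 91 lost the call, 54 gained it and 13 reversed, all 13 with the other fraction's share subtracted, and among values not called in either fit the sign changed in 100. The reversed log2 values were, for epithelial TGF-β against vehicle, -0.64 (Cdkn1a), -0.21 (Ccng1), -2.86 (Phlda3) and -1.0 (Eda2r). For epithelial EC against TGF-β they were 0.34 (Cdkn1a), 2.41 (Phlda3) and 0.54 (Eda2r). For epithelial IPFc against TGF-β they were 0.62 (Cdkn1a) and 2.76 (Phlda3). For epithelial EC against IPFc it was 0.08 (Trp53inp1). For fibroblast EC against TGF-β they were 0.12 (Phlda3) and 0.07 (Eda2r). For the difference of the TGF-β responses it was -1.04 (Eda2r). The cause was not tested. Members called for EC against vehicle rose from 0 to 1 in epithelium with no filter, DESeq2, the title suffix or subtraction, and in fibroblasts to 1 with library size only, DESeq2, robust dispersion or only the groups compared and to 3 with no filter or without the EC library of mouse 1. With subtraction they numbered 0 for fibroblast TGF-β against vehicle, 0 for EC against IPFc in either fraction and 1 for fibroblast EC against TGF-β. DESeq2 called 2 for fibroblast IPFc against TGF-β, no filter gave 1 for the difference of the EC responses, and the title suffix gave 2 for that of the TGF-β responses. Without the mouse block 6 members were called for epithelial and 3 for fibroblast TGF-β, 0 for epithelial EC against IPFc, and the count over all genes fell from 794 to 391 for epithelial EC, 739 to 297 for epithelial IPFc, 1284 to 321 for fibroblast EC, 81 to 35 for fibroblast IPFc, 751 to 422 and 1885 to 693 for EC against IPFc in epithelium and fibroblasts, and 843 to 10 and 42 to 6 for the differences of the EC and IPFc responses. With subtraction the all-gene counts for EC, IPFc and TGF-β were 331, 164 and 4571 in epithelium and 38, 3 and 760 in fibroblasts, against 794, 739, 7400, 1284, 81 and 3457. DESeq2 called 2040 genes for fibroblast EC, 183 for fibroblast IPFc, 1372 and 125 for the differences of the EC and IPFc responses. When 1 mouse at a time was dropped, the members called ranged over 0 to 0 (epithelial EC), 0 to 0 (epithelial IPFc), 6 to 7 (epithelial TGF-β), 0 to 5 (fibroblast EC), 0 to 0 (fibroblast IPFc) and 3 to 7 (fibroblast TGF-β) against vehicle. They ranged over 1 to 3, 7 to 8 and 5 to 6 in epithelium and 3 to 5, 7 to 10 and 1 to 4 in fibroblasts for EC against IPFc, EC against TGF-β and IPFc against TGF-β. They ranged over 7 to 9, 6 to 8, 8 to 10 and 7 to 10 between fractions in vehicle, EC, IPFc and TGF-β, and over 0 to 0, 0 to 0 and 0 to 5 for the differences of the EC, IPFc and TGF-β responses.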
